A study of Mus musculus with 10 samples.

Results

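Inhibition of lactate dehydrogenase (LDH) in mouse CD8+ T cells kept in interleukin 2 was examined in 4 of the 10 RNA-seq libraries of the series, 2 with IL-2 and inhibitor and 2 with IL-2 alone. They were chosen by their titles. All groups were CD8+ T cells from spleens of C57BL/6N mice that had been activated for 48 h with antibodies to CD3, bound to the plate, and CD28, each at 2 µg/ml. Activated cells were pooled, replated and kept for another 48 h with human IL-2 (100 IU/ml), IL-21 (100 ng/ml) or no cytokine. In the inhibitor groups the LDH inhibitor NCI-737 (LDHi below, at 1 µM), given here by its code name alone, was added at activation and again at replating. No group received LDHi without a cytokine, so an effect on activation and an effect on the later response to IL-2 cannot be told apart. The 2 libraries without cytokine serve as the background for each gene, and the 4 with IL-21 and IL-21 + LDHi were used to test whether an effect of LDHi differed between the cytokines. The libraries without cytokine held far more transcripts of granulocytes, erythroid cells and macrophages, as given below with the markers of other cells. What part this has in the comparisons with them was not tested. Nothing in the labels ties a replicate number to a mouse, culture or day, and the p-values therefore cover the spread between libraries alone, which could be technical.

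LDH turns pyruvate into lactate and in doing so returns NADH to NAD+, which lets glycolysis run on. It is built from A and B subunits, encoded by Ldha and Ldhb. Activated CD8+ T cells take up much glucose and release much of it as lactate, and IL-2 is known to keep this state going through the kinase mTORC1, the hypoxia-inducible factor HIF-1, the amino acid response factor ATF4 and the sterol-sensing SREBP factors. Strong IL-2 signalling favours short-lived killer cells, while weaker signalling lets the FOXO1, TCF-1 and KLF2 factors of memory cells return. Levels below are the authors' RPKM, the reads per kilobase of transcript scaled to the size of the library, given for replicate 1 and then replicate 2. Differences are log2 fold changes ± SE of IL-2 + LDHi against IL-2, with 2 libraries per group, tested with edgeR's quasi-likelihood test and called at a Benjamini-Hochberg adjusted p below 0.05 over all genes tested.

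The 4 libraries held 48167728 to 62848913 reads by the authors' totals, of which 74.2 to 79.4% fell on the transcripts used. Genes of T cell identity were abundant in both groups, with summed levels over the 19 listed of 3389 and 3592 RPKM in IL-2 and 3530 and 3656 RPKM with LDHi. Cd3e, part of the CD3 complex, measured 167 and 174 RPKM in IL-2 and 193 and 196 RPKM with LDHi (0.15 ± 0.15, adjusted p = 0.465). Cd8b1, the beta chain of CD8, measured 249.5 and 282 RPKM in IL-2 and 471 and 509 RPKM with LDHi, and rose by 0.84 ± 0.12 (adjusted p = 0.000584). Of the 19 identity genes 6 were lower and 2 higher, Cd2 (-0.84) and Themis (-1.25) among the lower, where 21.6% of all genes were called lower and 17.8% higher. The lower count was 3 without IL-2 replicate 2 or either IL-2 + LDHi library, and the higher count 1 without IL-2 replicate 1 or either IL-2 + LDHi library and 5 with library size alone. Log2 values of the replicates correlated across genes with r = 0.994 in IL-2 and 0.996 in IL-2 + LDHi, and on the first 2 principal components the IL-2 + LDHi pair lay apart from the IL-2 pair, the pair without cytokine and the IL-21 + LDHi pair.

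LDHi changed the level of 39.4% of the genes tested, 5657 of 14357. Of these 2557 (17.8%) were higher and 3100 (21.6%) lower with LDHi, 923 (6.43%) and 1745 (12.2%) of them by at least 2-fold. The shares of 17.8% and 21.6% are the background for every count of list members called for LDHi in IL-2. The median log2 fold change over all genes was 0.01, with quartiles of -0.50 and 0.45. With 1 of the 4 libraries left out fewer genes were called, 3379 (IL-2 replicate 1 left out), 3654 (IL-2 replicate 2), 3113 (IL-2 + LDHi replicate 1) and 3140 (IL-2 + LDHi replicate 2). Scaling by library size alone moved the median of all genes to 0.13 and turned the split into 3308 higher and 2564 lower, so small median shifts of a gene group depend on the scaling.

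**Figure D1:**
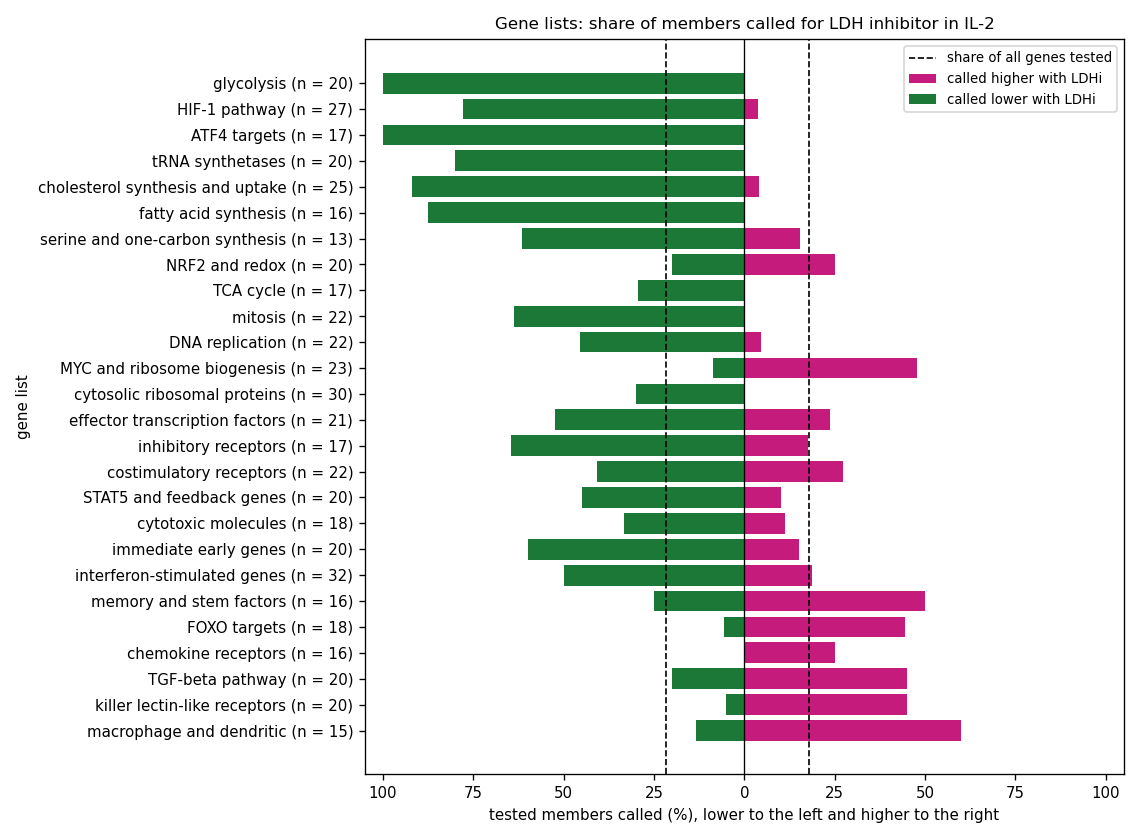
Share of the tested members of 26 gene lists called higher (right, magenta) or lower (left, green) with LDHi in IL-2, in percent, with the number of members tested. Dashed lines mark the shares over all genes, 17.8% higher and 21.6% lower. The bars of glycolysis and ATF4 targets reach the left end with 20 of 20 and 17 of 17 members lower, while the longest bars to the right are those of macrophage and dendritic markers (9 of 15) and memory and stem factors (8 of 16).

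The naming rule took called genes of at least 5 RPKM in the higher group whose groups did not overlap. In order of size, the 10 decreases so named were Fam183b (-9.05), Gpld1, a phospholipase that cuts GPI anchors (-8.27), Tnfrsf8, the receptor CD30 (-7.75), the dynamin Dnm1 (-7.75), Mgarp, a mitochondrial protein (-7.51), the fatty acid desaturase Scd1 (-7.49), the adenylate kinase Ak4 (-6.94), the growth factor Vegfa (-6.63), the aldolase Aldoc (-6.63) and Emilin2, a matrix glycoprotein (-6.54). Fam183b measured 9.67 and 11.5 RPKM in IL-2 and 0.0283 and 0 with LDHi, and Tnfrsf8 measured 22.7 and 17.9 RPKM in IL-2 and 0.141 and 0.0395 with LDHi. For Fam183b only 1 read was left with LDHi against 628 in IL-2, a ratio of 682-fold with a 95% counting interval of 122 to 26968. By the same rule the 10 increases were Il6ra, the IL-6 receptor (4.46), the integrin Itgae (3.80), Vipr1, a receptor for vasoactive intestinal peptide (3.79), the gut-homing receptor Ccr9 (3.33), Fam101b (3.22), Pgpep1l (2.97), the imprinted noncoding RNA Peg13 (2.79), the MHC class II chain H2-Aa (2.69), Klf2 (2.66) and the potassium channel Kcna2 (2.63). Vipr1 measured 1.44 and 1.14 RPKM in IL-2 and 18.1 and 18.6 with LDHi, against 22.1 and 18.3 without cytokine. H2-Aa is no T cell gene, and its call ended without IL-2 replicate 2 (adjusted p = 0.0634). It is taken up with the markers of other cells.

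Among abundant genes, with at least 200 RPKM in 1 group, the largest decreases were in the desaturase Scd2, Gzmb (granzyme B), the glycolytic enzymes Aldoa, Pgk1, Tpi1 and Gapdh, and Ly6a and Plac8, a surface antigen and a small cysteine-rich protein of activated T cells. Ly6a measured 282 and 278 RPKM in IL-2 and 52.7 and 57.4 with LDHi and fell by 2.39 ± 0.15 (adjusted p = 1.36e-05). Plac8 measured 435 and 469 RPKM in IL-2 and 99.8 and 118 with LDHi and fell by 2.10 ± 0.23 (adjusted p = 0.000184). The largest increases among abundant genes were smaller, from 0.74 (Ms4a6b) to 0.96 (Atp1b3, a subunit of the sodium pump). They included Myh9, a non-muscle myosin (0.85), the interferon-inducible gene Shisa5 (0.87) and Hmgn2, a nucleosome-binding protein (0.79). The calls of Hmha1 and Sept1, also in this set, were lost without 1 library: Hmha1 (0.92 ± 0.23) without any of the 4, at adjusted p from 0.0538 to 0.0877, and Sept1 (0.76 ± 0.17) without IL-2 replicate 1 (0.0677) or IL-2 + LDHi replicate 2 (0.0551).

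The genes around the inhibited step were lower or not called. Of 21 tested genes of pyruvate and lactate handling 8 were lower and 0 higher (median -0.12). Ldha measured 1063 and 891 RPKM in IL-2, 273 and 286 with LDHi and 220.3 and 208.7 without cytokine, so that LDHi left it a little above the cells without cytokine, a difference that was not called (0.32 ± 0.17, adjusted p = 0.205) except without IL-21 replicate 1 (0.046) or 2 (0.0453). Ldhb, of much lower level, measured 4.91 and 4.70 RPKM in IL-2 and 6.54 and 6.98 with LDHi; it was not called (0.45 ± 0.23, adjusted p = 0.159). The lactate exporter gene Slc16a3 (MCT4; chromosome 11, 120948484 to 120959000, mm10) measured 64.7 and 33.3 RPKM in IL-2, 1.70 and 1.62 with LDHi and 2.63 and 3.47 without cytokine. Its replicates in IL-2 differed widely, yet both stood far above the other pairs, and it fell by 4.93 ± 0.35 (adjusted p = 2.35e-05). The transporter Slc16a1 (MCT1) fell by 0.70, from 25.6 and 23.5 to 15.4 and 15.7 RPKM, and Bsg, the chaperone that brings both transporters to the membrane, fell by 1.57, from 175 and 155 to 55.9 and 58.1 RPKM. Pcx, which makes oxaloacetate from pyruvate, measured 10.0 and 7.45 RPKM in IL-2 and 0.959 and 0.966 with LDHi, and fell by 3.22 ± 0.22 (adjusted p = 1.83e-05). Pdk1, the kinase that shuts off pyruvate dehydrogenase, measured 92.4 and 70.2 RPKM in IL-2 and 53.3 and 55.3 with LDHi (-0.62 ± 0.15, adjusted p = 0.00892). Its call ended without IL-2 replicate 1 (0.0802) or IL-2 + LDHi replicate 1 (0.0694) or 2 (0.0603).

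All 20 glycolysis genes tested were lower with LDHi (median -2.01), from the glucose transporters to pyruvate kinase, and with 1 of the 4 libraries left out 17 to 19 were. Aldoa, the main aldolase (chromosome 7, 126795234 to 126800994, mm10), measured 1592 and 1662 RPKM in IL-2, 199 and 201 with LDHi and 188 and 169 without cytokine, and fell by 3.06 ± 0.16 (adjusted p = 8.25e-06). Pgk1, phosphoglycerate kinase, measured 1343 and 1217 RPKM in IL-2, 171 and 178 with LDHi and 96.2 and 87.2 without cytokine, and fell by 2.92 ± 0.20 (adjusted p = 1.87e-05). Pgk1 with LDHi was still higher than without cytokine (0.87 ± 0.18, adjusted p = 0.00885), and so was the enolase Eno1 at 817 and 744 RPKM in IL-2, 248 and 269.9 with LDHi and 124 and 101 without cytokine (1.15 ± 0.19, adjusted p = 0.00289). The glucose transporter Slc2a3 (GLUT3) went the other way, with 89.4 and 53.4 RPKM in IL-2, 12.3 and 12.6 with LDHi and 22.7 and 22.9 without cytokine, so that LDHi took it below the cells without cytokine (-0.93 ± 0.23, adjusted p = 0.0171). Slc2a1 (GLUT1) measured 46.4 and 25.9 RPKM in IL-2 and 12.2 and 13.1 with LDHi and fell by 1.56, a call that ended where only the 4 libraries compared were fitted (adjusted p = 0.0603). Against cells without cytokine, where 24.2% of all genes were called (10.9% higher, 13.3% lower), 5 of the glycolysis genes were higher and 2 lower with IL-2 + LDHi (median 0.03). The higher count came to 1 without either IL-2 + LDHi library and 2 without no cytokine replicate 2. The lower count came to 0 without either IL-2 + LDHi library or no cytokine replicate 1, and 1 without no cytokine replicate 2. Over all genes the count of 3474 came to 1595 and 1556 when IL-2 + LDHi replicate 1 or 2 was left out. The calls against no cytokine were lost for Slc2a3 without either IL-2 + LDHi library (adjusted p = 0.104 and 0.102) or either library without cytokine (0.0633 and 0.0656). For Pgk1 they were lost without IL-2 + LDHi replicate 1 (0.0519) or 2 (0.0614) or no cytokine replicate 2 (0.0558). Aldoa, Gapdh, Pgk1 and Eno1 have processed pseudogenes with which they may share reads.

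The HIF-1 pathway list, which holds the factor, its regulators and its targets outside glycolysis, had 21 of 27 members lower and 1 higher (median -2.13). The factor's own gene Hif1a (chromosome 12, 73901324 to 73947554, mm10) measured 106 and 105 RPKM in IL-2, 24.4 and 25.2 with LDHi and 46.5 and 46.2 without cytokine. It fell by 2.13 ± 0.16 (adjusted p = 3.61e-05), and with LDHi it was below the cells without cytokine as well (-0.96 ± 0.16, adjusted p = 0.00258). Egln3, an oxygen-sensing prolyl hydroxylase that HIF-1 itself induces, measured 71.8 and 31.2 RPKM in IL-2, 1.06 and 0.97 with LDHi and 2.49 and 2.03 without cytokine, and fell by 5.70 ± 0.40 (adjusted p = 2e-05). The mitophagy gene Bnip3 measured 139 and 78.8 RPKM in IL-2, 2.99 and 2.98 with LDHi and 3.22 and 3.58 without cytokine and fell by 5.23 ± 0.27 (adjusted p = 8.25e-06). In RPKM both targets with LDHi lay below their level without cytokine, Bnip3 only by a little. For Egln3 this difference was called by edgeR (adjusted p = 0.0368). It was not called by limma on log2(RPKM + 1) (0.202) or by edgeR with no filter (0.0958), nor with 1 library of either group left out. Vegfa measured 14.0 and 11.1 RPKM in IL-2, 0.14 and 0.118 with LDHi and 1.10 and 1.70 without cytokine, and it was lower with LDHi than in either other group (against no cytokine -3.48 ± 0.36, adjusted p = 0.000232). P4ha2, a collagen prolyl hydroxylase, fell from 10.2 and 7.69 to 0.0766 and 0.127 RPKM, and Ero1l, an oxidase of disulfide bond formation, from 210.9 and 97.3 to 16.9 and 15.8 RPKM. Many of these genes were higher in IL-2 replicate 1 than in replicate 2: 8 of the 27 HIF-1 genes and 3 of the 20 glycolysis genes by at least 1.5-fold, none in the other direction, against 750 and 783 of all 14357 genes in each direction. What separates the IL-2 replicates was not tested, and without IL-2 replicate 1 there were 19 HIF-1 genes lower.

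Sequence just before the start of 3 glycolysis genes is shown because the list fell as a whole and HIF-1 binds a known core element. For each gene the promoter entry (GRCm38.p6) nearest its RefSeq start was taken, with no limit on the distance. The 250 bases upstream of that entry's start were searched on both strands for the letters ACGTG alone. Other forms of the core were not counted or marked. ACGTG was found in 6 of 19 glycolysis promoters matched (31.6%), 10 of 22 of the HIF-1 list (45.5%) and 9 of 18 of pyruvate and lactate handling (50.0%). The share of all 32851 promoters in the table was 16.6%. Among the matches counted, the entry's start lay 6543 bases from the RefSeq start for Hif1a and 3530 for Ldha. Here and for the elements below, all promoters were not limited to tested genes or to 1 promoter per gene, so the shares are not like for like. A match is a description of the letters, not a site in use. Below are the called genes with a match and the largest decrease, Pgk1 (chrX:106186894-106187043, plus strand), Hk2 (chr6:82774455-82774604, minus strand) and Pgam1 (chr19:41911682-41911831, plus strand), 150 bases each, 5′ to 3′ on the gene's strand, with every ACGTG or its reverse complement in capitals.
Pgk1: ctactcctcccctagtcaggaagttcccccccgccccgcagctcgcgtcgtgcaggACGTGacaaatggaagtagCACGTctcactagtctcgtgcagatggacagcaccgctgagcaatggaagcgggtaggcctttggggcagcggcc
Hk2: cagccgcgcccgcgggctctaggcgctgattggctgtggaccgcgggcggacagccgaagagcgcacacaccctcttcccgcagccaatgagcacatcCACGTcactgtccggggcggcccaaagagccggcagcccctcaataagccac
Pgam1: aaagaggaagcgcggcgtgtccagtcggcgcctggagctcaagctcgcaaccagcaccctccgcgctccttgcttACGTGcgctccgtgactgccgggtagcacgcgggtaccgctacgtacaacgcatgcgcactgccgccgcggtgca
In the stretches shown Pgk1 holds 2 matches on opposite strands and Hk2 and Pgam1 hold 1 each, and Hk2 has another farther upstream in the window searched. Hk2, the hexokinase of the first step, measured 21.9 and 11.5 RPKM in IL-2, 2.34 and 2.41 with LDHi and 1.93 and 2.79 without cytokine. Pgam1, a phosphoglycerate mutase, measured 359 and 263 RPKM in IL-2 and 74.8 and 81.4 with LDHi and fell by 2.04 ± 0.19 (adjusted p = 8.65e-05).

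Transcripts of the amino acid response fell as well. All 17 ATF4 targets tested, the factor's own gene among them, were lower with LDHi (median -3.10), and 14 to 16 were with 1 of the 4 libraries left out. Atf4 measured 137 and 154 RPKM in IL-2, 56.7 and 53.7 with LDHi and 46.9 and 45.9 without cytokine, and fell by 1.44 ± 0.10 (adjusted p = 1.87e-05). Asns, asparagine synthetase (chromosome 6, 7675165 to 7693209, mm10), measured 54.1 and 53.7 RPKM in IL-2, 1.49 and 1.49 with LDHi and 2.98 and 3.86 without cytokine, and fell by 5.22 ± 0.17 (adjusted p = 2.25e-06). The LDHi pair of Asns agreed closely and lay below both pairs without inhibitor (against no cytokine -1.25 ± 0.15, adjusted p = 0.000483). The pseudokinase Trib3 measured 24.1 and 23.5 RPKM in IL-2 and 2.48 and 3.23 with LDHi and fell by 3.10, and Ddit4, an inhibitor of mTORC1, measured 116 and 89.3 RPKM in IL-2 and 10.3 and 13.4 with LDHi and fell by 3.16. Chac1, which breaks down glutathione, and the alanine transaminase Gpt2 were nearly gone: Chac1 went from 2.96 and 3.28 to 0.0608 and 0.0132 RPKM and Gpt2 from 6.55 and 6.89 to 0.226 and 0.231 RPKM.

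The ATF4 element was searched as TGATGNAA, on both strands, in windows chosen the same way. It was found in 3 of 15 ATF4 promoters matched, 3 of 13 tRNA synthetase promoters (23.1%), 1 of 14 of the amino acid transporters (7.14%) and 0 of 12 of serine and one-carbon synthesis, against 3.45% of all promoters. Among these matches, the start used lay 6064 bases from the RefSeq start for the synthetase gene Aars and 2124 for the transporter gene Slc7a7. The 3 ATF4 members that hold the element are shown in part, Chac1 (chr2:119350992-119351141, plus strand), Nupr1 (chr7:126625506-126625655, minus strand) and Asns (chr6:7693210-7693359, minus strand), with the match in capitals.
Chac1: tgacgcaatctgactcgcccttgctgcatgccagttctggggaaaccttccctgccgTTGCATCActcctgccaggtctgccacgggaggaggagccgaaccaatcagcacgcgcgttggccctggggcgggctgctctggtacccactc
Nupr1: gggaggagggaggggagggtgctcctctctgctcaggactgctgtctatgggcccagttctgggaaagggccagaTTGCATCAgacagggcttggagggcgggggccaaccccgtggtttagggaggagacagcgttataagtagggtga
Asns: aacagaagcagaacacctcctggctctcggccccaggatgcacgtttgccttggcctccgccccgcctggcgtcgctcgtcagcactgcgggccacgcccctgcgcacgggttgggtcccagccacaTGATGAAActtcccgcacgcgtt
In Asns the match begins 23 bases before the start. Nupr1, a stress-induced cofactor, measured 4.66 and 5.98 RPKM in IL-2 and 0.0254 and 0.232 with LDHi and fell by 5.47 ± 0.91 (adjusted p = 0.00231).

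Of 20 cytosolic tRNA synthetases 16 were lower and none higher (median -0.85), with 11 to 14 when 1 of the 4 libraries was left out. Cars and Sars, which charge the tRNAs of cysteine and serine, changed by -1.88 and -1.41. Unlike Asns, several enzymes of serine and one-carbon synthesis stayed above cells without cytokine. The list had 8 of 13 members lower and 2 higher with LDHi, and against no cytokine 8 higher and 0 lower (median 0.85). Mthfd1 and Mat2a were the members that rose with LDHi. Phgdh, the first enzyme of serine synthesis, measured 124 and 126 RPKM in IL-2, 65.3 and 72.3 with LDHi and 33.7 and 29.4 without cytokine. Mat2a, which makes the methyl donor S-adenosylmethionine, was an exception at 35.8 and 42.9 RPKM in IL-2 and 85.0 and 87.9 with LDHi and rose by 1.10 ± 0.22 (adjusted p = 0.00451). Among amino acid transporters 6 of 19 were lower (31.6%) and 2 higher (10.5%), where 21.6% and 17.8% of all genes were. Slc7a5, the large neutral amino acid transporter, measured 61.8 and 68.2 RPKM in IL-2, 21.6 and 23.4 with LDHi and 8.20 and 10.3 without cytokine, so that it lay between the groups without inhibitor. Slc7a3, Slc1a4 and Slc6a9, carriers of arginine, neutral amino acids and glycine, changed most, by -4.52, -4.37 and -4.71.

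Transcripts of most listed genes of sterol and fatty acid synthesis fell. Of 25 genes of cholesterol synthesis and uptake 23 were lower (median -1.82), 21 to 23 with 1 of the 4 libraries left out, and of 16 of fatty acid synthesis 14 were (median -0.93), 10 with any of them left out. The desaturases, which put the double bond into fatty acids, changed most. Scd1 (chromosome 19, 44394450 to 44407709, mm10) measured 40.8 and 32.6 RPKM in IL-2, 0.22 and 0.197 with LDHi and 0.961 and 0.463 without cytokine, and fell by 7.49 ± 0.55 (adjusted p = 2.76e-05). Scd2 measured 306 and 246 RPKM in IL-2, 8.40 and 9.92 with LDHi and 17.8 and 17.2 without cytokine and fell by 4.96 ± 0.17 (adjusted p = 2.25e-06). Fads2, which desaturates polyunsaturated fatty acids, measured 33.0 and 28.3 RPKM in IL-2, 0.57 and 0.578 with LDHi and 6.51 and 12.2 without cytokine and fell by 5.78 ± 0.47 (adjusted p = 4.39e-05). With LDHi, Scd2 and Fads2 were lower than without cytokine too, Scd2 at an adjusted p of 0.00126 and Fads2 by -4.08 (0.000274).

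In the sterol branch, Fdps, farnesyl diphosphate synthase, measured 145 and 156 RPKM in IL-2, 19.3 and 21.2 with LDHi and 16.3 and 19.3 without cytokine, and fell by 2.93 ± 0.17 (adjusted p = 1.15e-05). The LDHi pair of Fdps lay near the pair without cytokine, and the median over the sterol list against no cytokine was 0.17. Srebf2, the gene of the sterol-sensing factor itself, moved less, from 67.0 and 70.1 to 38.1 and 40.5 RPKM (-0.84 ± 0.14, adjusted p = 0.00203). Genes of sterol efflux, storage and transport moved in both directions, with 3 of 10 higher and 2 lower (median 0.10), where 17.8% and 21.6% of all genes were. The higher ones were Mylip, a ubiquitin ligase induced by sterols, at 3.39 and 3.07 RPKM in IL-2 and 9.45 and 9.84 with LDHi, and the efflux genes Abca1 and Apoe, by 1.46 and 2.15. The lower ones were Soat2, which esterifies cholesterol for storage, and Npc1, which exports it from lysosomes, by -1.90 and -0.90. The sterol element TCACNCCAC, searched on both strands, was found in 1 of 17 promoters matched of the cholesterol list (5.88%) and 0 of 13 of fatty acid synthesis, against 1.05% of all promoters. The member was Hmgcs1 (chr13:119690139-119690288, plus strand), which makes the precursor of mevalonate and measured 116 and 117 RPKM in IL-2 and 23.8 and 25.8 with LDHi.
Hmgcs1: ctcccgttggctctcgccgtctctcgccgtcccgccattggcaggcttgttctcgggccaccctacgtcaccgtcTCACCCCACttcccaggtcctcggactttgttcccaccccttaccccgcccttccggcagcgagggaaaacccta
The capitals mark the match.

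**Figure D2:**
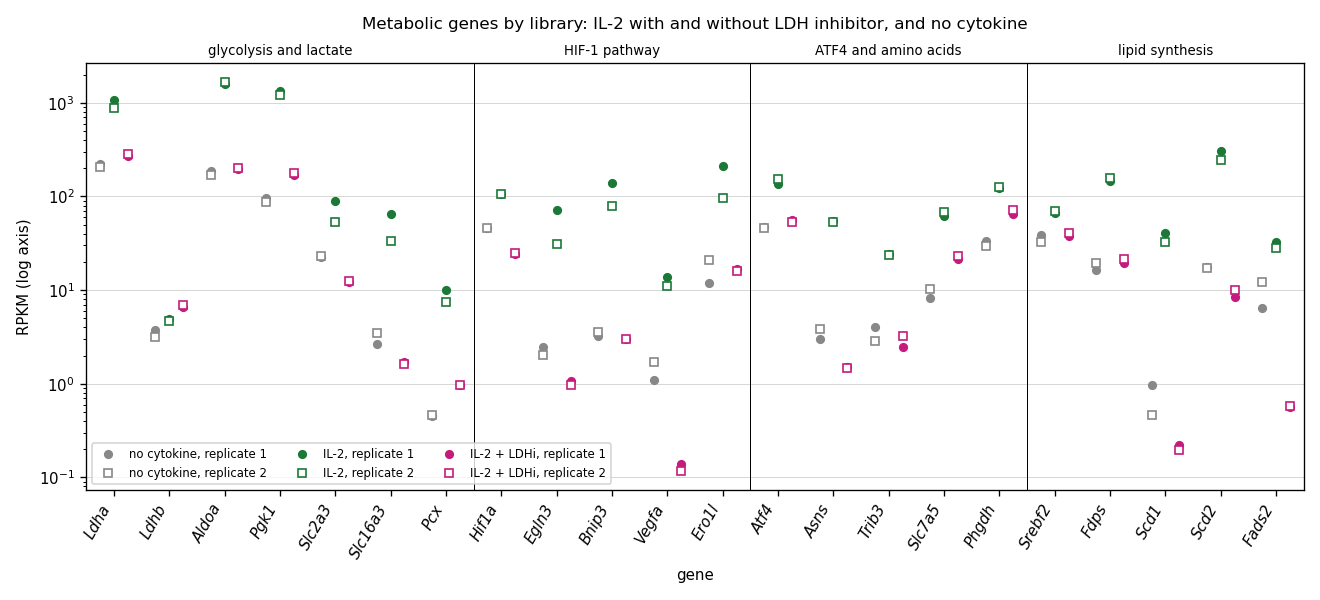
RPKM (log axis) in each library of no cytokine (grey), IL-2 (green) and IL-2 + LDHi (magenta), replicate 1 as filled circles and replicate 2 as open squares, for 22 metabolic genes in 4 groups. Green points stand above magenta ones for each gene but Ldhb. Vegfa, Asns, Scd1, Scd2 and Fads2 with LDHi lie below the grey points, as do some others, while Phgdh, Slc7a5 and Pgk1 lie above them.

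Other metabolic lists moved less or in both directions. Of 17 TCA cycle genes 5 were lower and 0 higher (median -0.27), near the share of all genes, and only 1 to 3 were lower with 1 of the 4 libraries left out (3 when IL-2 replicate 1 was left out, 2 for IL-2 replicate 2 or IL-2 + LDHi replicate 2, 1 for IL-2 + LDHi replicate 1, and 9 without either IL-21 library). With library size alone 3 were lower and 2 higher. Of 20 redox genes 5 were higher and 4 lower, near the shares of all genes. The higher count was 3 without IL-2 replicate 1 or IL-2 + LDHi replicate 2, and the lower count 2 without IL-2 replicate 2 or IL-2 + LDHi replicate 1. Nqo1, a quinone reductase that uses NADH or NADPH and a standard NRF2 target, measured 0.635 and 0.629 RPKM in IL-2, 4.56 and 5.31 with LDHi and 2.01 and 3.31 without cytokine, and rose by 2.92 ± 0.39 (adjusted p = 0.000508). Txnrd1, thioredoxin reductase, measured 26.6 and 26.1 RPKM in IL-2, 56.5 and 56.7 with LDHi and 24.5 and 25.2 without cytokine, so that it was highest with LDHi (against no cytokine 1.13 ± 0.11, adjusted p = 0.000176). Gclc, the catalytic subunit of glutathione synthesis, rose by 1.13, and Hmox1, heme oxygenase, fell by 1.35. In the heat shock list 8 of 13 members were lower (61.5%) and 2 higher (15.4%), where 21.6% and 17.8% of all genes were. The lower count was much smaller when IL-2 replicate 2 or either IL-2 + LDHi library was left out. It includes Hspa1a, at 0.0863 and 13.1 RPKM in IL-2 and 0.0796 and 0.0816 with LDHi, whose call rested on IL-2 replicate 2 alone. Hsp90ab1, an abundant chaperone, measured 1270 and 1229 RPKM in IL-2 and 579 and 588 with LDHi and fell by 1.14.

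Among transcription factors of effector cells 11 of 21 were lower and 5 higher (median -0.86), 3 higher without IL-2 + LDHi replicate 2. Batf3, a basic leucine zipper factor, measured 15.8 and 18.4 RPKM in IL-2, 0.223 and 0.292 with LDHi and 7.20 and 3.58 without cytokine, and fell by 6.09 ± 0.40 (adjusted p = 1.76e-05). Its LDHi level was also far below that without cytokine (-4.44 ± 0.39, adjusted p = 0.000105). Irf4, which follows the strength of T cell receptor signalling, measured 32.4 and 32.0 RPKM in IL-2, 4.28 and 4.03 with LDHi and 5.24 and 4.11 without cytokine and fell by 2.99 ± 0.19 (adjusted p = 1.44e-05). Nfil3 measured 34.7 and 29.7 RPKM in IL-2, 2.89 and 3.13 with LDHi and 2.12 and 2.18 without cytokine and fell by 3.46 ± 0.16 (adjusted p = 7.35e-06). For Irf4 and Nfil3 the LDHi pair came close to the pair without cytokine. Bhlhe40, a factor of cytokine production, fell by 2.76, and Prdm1 (Blimp-1) went from 3.76 and 2.95 to 1.14 and 1.03 RPKM. The T-box factors did not follow. Tbx21 (T-bet) measured 12.8 and 14.1 RPKM in IL-2 and 8.78 and 9.40 with LDHi (-0.60 ± 0.23, adjusted p = 0.0663), and Eomes measured 20.7 and 18.9 RPKM in IL-2 and 29.3 and 31.0 with LDHi (0.56 ± 0.14, adjusted p = 0.0115). The call of Eomes was lost without IL-2 replicate 2 (0.0813) or without IL-2 + LDHi replicate 1 (0.0534) or 2 (0.0731), and Tbx21 was called lower by DESeq2 (adjusted p = 0.0297).

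Of 16 factors of memory and stem-like cells 8 were higher and 4 lower (median 0.51), with 5 higher without either IL-2 + LDHi library, and 1 and 2 lower without IL-2 replicate 2 and IL-2 + LDHi replicate 2. Klf2 (chromosome 8, 72319062 to 72321654, mm10), which keeps T cells quiescent and drives exit from tissue, measured 21.3 and 22.2 RPKM in IL-2, 140.1 and 143 with LDHi and 130.0 and 98.0 without cytokine, and rose by 2.66 ± 0.23 (adjusted p = 5.32e-05). Klf3 measured 7.76 and 9.38 RPKM in IL-2 and 43.6 and 42.1 with LDHi and rose by 2.28 ± 0.23 (adjusted p = 0.000122). Foxo1, which switches on Klf2 and Il7r, measured 22.1 and 21.3 RPKM in IL-2, 40.2 and 41.0 with LDHi and 40.8 and 37.2 without cytokine, and rose by 0.86 ± 0.11 (adjusted p = 0.00042). For Klf2 and Foxo1 the LDHi pair was within or near the range without cytokine. Lef1 rose by 0.87, from 43.4 and 45.9 to 82.9 and 85.3 RPKM. Tcf7 (TCF-1) measured 186 and 212.6 RPKM in IL-2, 308 and 311 with LDHi and 602 and 424 without cytokine, in between the other pairs (0.60 ± 0.16, adjusted p = 0.0162; against no cytokine -0.79 ± 0.16, 0.00702). Against no cytokine the call ended without either IL-2 + LDHi library (adjusted p = 0.0632 and 0.0666). The call of Tcf7 for LDHi ended without IL-2 replicate 1 (0.123) or without IL-2 + LDHi replicate 1 (0.0848) or 2 (0.0805). Bcl6, a transcriptional repressor found in memory cells, went against the list and fell by 1.07, from 4.02 and 4.22 to 2.01 and 2.03 RPKM.

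Among 18 FOXO targets 8 rose and 1 fell (median 0.47), with 5 or 6 higher when 1 of the 4 libraries was left out (5 without IL-2 replicate 1 or either IL-2 + LDHi library). S1pr1, the receptor that lets lymphocytes leave tissue, measured 36.5 and 31.1 RPKM in IL-2, 113 and 107 with LDHi and 122 and 132 without cytokine, and rose by 1.66 ± 0.19 (adjusted p = 0.000254). Ccr7, which brings naive and memory cells into lymph nodes, was not called, at 127 and 114 RPKM in IL-2 and 125 and 132 with LDHi (0.05 ± 0.22, adjusted p = 0.869). The IL-7 receptor gene Il7r measured 77.3 and 81.6 RPKM in IL-2 and 132 and 117 with LDHi (0.61 ± 0.18, adjusted p = 0.0229), a call that ended without any 1 of the 4 libraries (adjusted p of 0.122 and 0.085 for the IL-2 libraries, and 0.144 and 0.0565 for those with LDHi, in order of replicate). Actn1, an actin crosslinker of naive cells, was clearer at 12.1 and 13.0 RPKM in IL-2 and 75.3 and 81.0 with LDHi and rose by 2.60 ± 0.14 (adjusted p = 8.25e-06).

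Homing and adhesion genes moved in both directions. Of 16 chemokine receptors 4 were higher (25%, against 17.8% of all genes) and 0 lower, also with any of the 4 libraries left out. Of 25 genes of adhesion and egress 8 were higher (32.0%) and 7 lower (28.0%), with 4 lower without IL-2 replicate 2 or IL-2 + LDHi replicate 2. Ccr9, which guides cells to the small intestine, measured 1.38 and 1.72 RPKM in IL-2, 17.3 and 14.8 with LDHi and 15.8 and 20.2 without cytokine. Cxcr6, a receptor of tissue-resident cells, measured 25.8 and 27.6 RPKM in IL-2, 82.5 and 73.4 with LDHi and 37.0 and 45.0 without cytokine and rose by 1.51 ± 0.15 (adjusted p = 0.000119). Ccr9 with LDHi lay among the cells without cytokine, while Cxcr6 was higher with LDHi than in both other groups (against no cytokine 0.87 ± 0.15, adjusted p = 0.00302). Itgae (CD103, chromosome 11, 73090505 to 73147449, mm10), which binds E-cadherin and is induced by TGF-beta, measured 1.44 and 1.53 RPKM in IL-2, 21.8 and 20.8 with LDHi and 17.5 and 12.8 without cytokine, and rose by 3.80 ± 0.18 (adjusted p = 7.35e-06). The integrin subunit Itga4 measured 13.6 and 14.6 RPKM in IL-2, 49.5 and 47.3 with LDHi and 73.5 and 94.6 without cytokine and rose by 1.74 ± 0.22 (adjusted p = 0.000371). Among the lower members were the integrin subunits Itgb3 (-1.19) and Itgav (-0.79) and the hyaluronan receptor Cd44 (-0.92). In the TGF-beta pathway list, of which Itgae is a member, 9 of 20 genes were higher and 4 lower (median 0.42). The inhibitors of the pathway Smad7, Ski and Ldlrad4 changed by 1.65, 1.77 and 2.45, with Smad7 at 4.91 and 4.89 RPKM in IL-2 and 16.2 and 15.5 with LDHi. Ltbp3 and Lrrc32, which store and present the latent ligand, changed by -3.74 and -1.05, and the ligand gene Tgfb1 by -0.63.

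Costimulatory receptors moved in both directions. Of 22 tested 9 were lower (40.9%) and 6 higher (27.3%). The 6 that were higher came to 1 without any 1 of the 4 libraries and to 3 without either IL-21 + LDHi library, while the lower count was 8 without each of these 4. Tnfrsf9 (4-1BB, chromosome 4, 150920155 to 150946104, mm10) measured 169 and 166 RPKM in IL-2, 6.63 and 6.65 with LDHi and 5.91 and 5.35 without cytokine, and fell by 4.70 ± 0.17 (adjusted p = 3.53e-06). Tnfrsf4 (OX40) measured 37.1 and 36.9 RPKM in IL-2, 5.10 and 4.60 with LDHi and 5.85 and 4.89 without cytokine and fell by 2.97 ± 0.14 (adjusted p = 7.35e-06). For both the LDHi pair lay next to the pair without cytokine. Inhibitory receptors were lower in 11 of 17 (median -1.55), 8 to 10 with 1 of the 4 libraries left out. Lag3 measured 27.1 and 30.8 RPKM in IL-2, 1.41 and 1.55 with LDHi and 8.82 and 5.08 without cytokine, and Ctla4 measured 188 and 192 RPKM in IL-2, 14.5 and 14.9 with LDHi and 69.7 and 51.3 without cytokine. Each was lowest with LDHi, Lag3 by -2.29 and Ctla4 by -2.10 against no cytokine (adjusted p = 0.00101 and 0.000202). Tigit, Havcr2 (TIM-3) and Entpd1 (CD39) changed by -2.71, -2.44 and -2.00. Of the 17 inhibitory receptors 64.7% were lower and 17.6% higher, where 21.6% and 17.8% of all genes were.

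Of 27 cytokine receptor genes 9 were lower (33.3%) and 6 higher (22.2%), where 21.6% and 17.8% of all genes were. The lower count came to 5 without either IL-2 + LDHi library and the higher count to 3 without IL-2 replicate 1 or IL-2 + LDHi replicate 1. Il2ra (CD25), which gives the IL-2 receptor its high affinity, measured 187 and 194 RPKM in IL-2, 35.1 and 37.2 with LDHi and 8.20 and 6.81 without cytokine. It fell by 2.43 ± 0.33 (adjusted p = 0.000601) but stayed above the cells without cytokine (2.21 ± 0.33, adjusted p = 0.00154). Il12rb2, the signalling chain of the IL-12 receptor, measured 91.0 and 112 RPKM in IL-2, 5.02 and 4.84 with LDHi and 10.8 and 7.28 without cytokine and fell by 4.40 ± 0.25 (adjusted p = 9.78e-06). Il6ra measured 0.843 and 1.27 RPKM in IL-2, 23.6 and 24.3 with LDHi and 17.0 and 20.1 without cytokine. The list of STAT5 and feedback genes did not move as one: 9 of 20 were lower (45.0%) and 2 higher (10.0%). Fewer were lower with any 1 of the 4 libraries left out. Cish, a feedback inhibitor that IL-2 induces, measured 44.0 and 38.2 RPKM in IL-2, 38.4 and 38.7 with LDHi and 2.13 and 2.41 without cytokine. Bcl2, the survival gene, measured 55.2 and 54.0 RPKM in IL-2, 55.4 and 63.8 with LDHi and 6.87 and 8.85 without cytokine. For both the LDHi and IL-2 pairs lay together, far above the cells without cytokine, and neither was called (Cish -0.13 ± 0.22, adjusted p = 0.666; Bcl2 0.09 ± 0.16, adjusted p = 0.712). Pim2, a kinase of the same list, fell by 1.60, and Socs2 fell by 1.23.

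**Figure D3:**
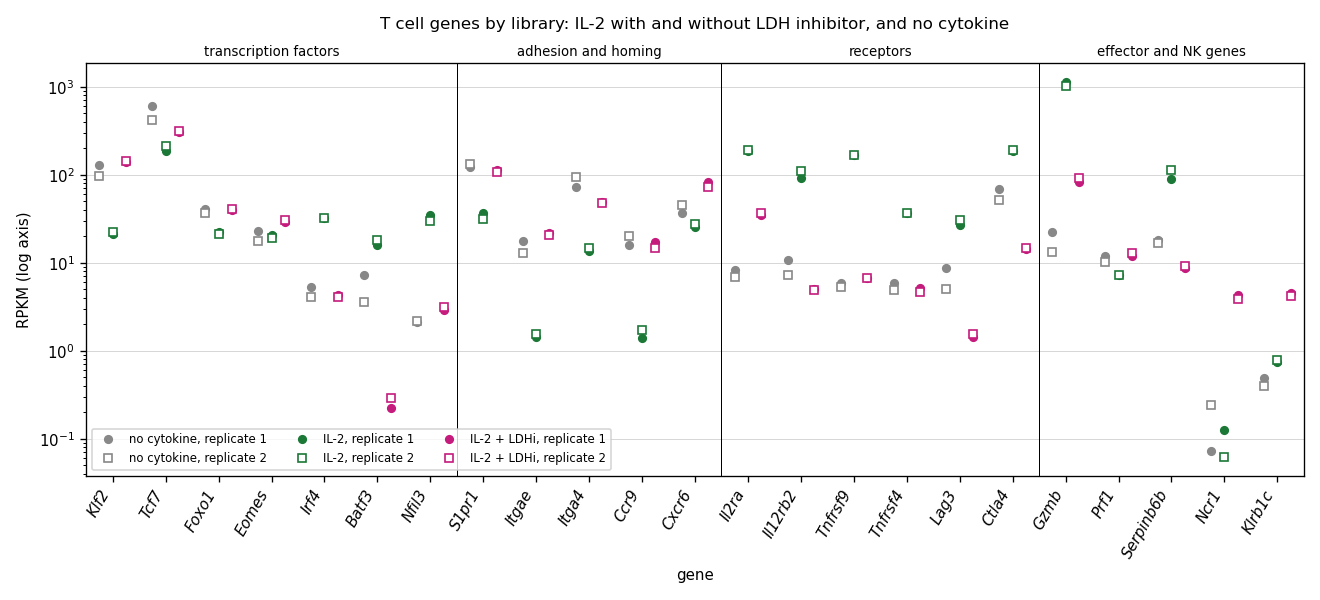
RPKM (log axis) in each library of no cytokine (grey), IL-2 (green) and IL-2 + LDHi (magenta), replicate 1 filled and replicate 2 open, for 23 T cell genes in 4 groups. Magenta points lie close to the grey ones for Klf2, Foxo1, Irf4, Ccr9 and Tnfrsf4, lie below both other groups for Batf3, Lag3 and Ctla4, and lie above both for Cxcr6, Ncr1 and Klrb1c.

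Of 18 cytotoxic molecules 6 were lower and 2 higher, the same counts as without any 1 of the 4 libraries. These were 33.3% lower and 11.1% higher, where 21.6% and 17.8% of all genes were. Gzmb measured 1148 and 1027 RPKM in IL-2, 83.4 and 92.8 with LDHi and 22.2 and 13.3 without cytokine. Serpinb6b, a serine protease inhibitor, measured 89.1 and 113 RPKM in IL-2, 8.75 and 9.07 with LDHi and 18.3 and 16.8 without cytokine and fell by 3.54 ± 0.14 (adjusted p = 3.53e-06). The pair with LDHi was thus above the background for Gzmb and below it for Serpinb6b. Gzmd and Gzmf, near-identical neighbours whose reads may be shared, had 33 and 18 reads in IL-2 and 0 with LDHi, at least 11.6-fold and 6.34-fold lower if 3 counts per group are taken as the floor. Perforin (Prf1) and Gzmm went the other way, Prf1 from 7.31 and 7.30 to 12.0 and 13.0 RPKM and Gzmm by 2.06. Fasl, the death ligand, fell by 1.31. Of 22 effector cytokine and chemokine genes tested 7 were lower (31.8%) and 3 higher (13.6%), with a median of 0.03. Their list summed to 411 and 387 RPKM in IL-2 and to 488 and 506 RPKM with LDHi, so it did not fall as a whole. Ifng measured 3.35 and 4.36 RPKM in IL-2 and 4.24 and 4.25 with LDHi (0.10 ± 0.24, adjusted p = 0.767). Il24 had 365 reads in IL-2 and 0 with LDHi, at least 129-fold lower against the same floor, and Il10 had 91 and 0 reads, at least 32.1-fold lower. Floors cover counting error only. Csf2 (GM-CSF) fell by 2.08.

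Of 20 genes of the natural killer (NK) receptor families 9 were higher with LDHi in IL-2 (45.0%, against 17.8% of all genes), 1 was lower and 10 were not called (median 0.49), and 7 to 9 were higher with 1 of the 4 libraries left out. Their summed level was no higher, at 271 and 297 RPKM in IL-2 and 273 and 254 RPKM with LDHi. Ncr1 (NKp46), an activating receptor of NK cells, measured 0.124 and 0.0618 RPKM in IL-2, 4.34 and 3.90 with LDHi and 0.0728 and 0.242 without cytokine, and rose by 5.42 ± 0.54 (adjusted p = 0.000119). Klrb1c (NK1.1) measured 0.734 and 0.783 RPKM in IL-2, 4.53 and 4.19 with LDHi and 0.485 and 0.396 without cytokine and rose by 2.48 ± 0.24 (adjusted p = 8.99e-05). Both were high only in the LDHi pair of these 3 groups, with both replicates alike. The signalling adaptor Tyrobp (DAP12) changed by 1.93 and Klrk1 (NKG2D) by -1.43. The Klra and Klrb1 genes are families of near-identical copies, so the split of reads among them is uncertain. In bulk libraries, a change in the number of cells of a type and a change in RNA per cell cannot be told apart. Of the 8 NK and innate lymphoid markers 5 were higher and 1 lower, with summed levels of 37.0 and 33.9 RPKM in IL-2 and 50.9 and 51.6 RPKM with LDHi, and their part in the values of the NK receptor genes was not tested.

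Of the immediate early genes 12 of 20 fell and 3 rose (median -1.01), with 1 higher without IL-2 + LDHi replicate 2 and 9 to 11 lower when 1 of the 4 libraries was left out. Atf3, a stress-induced factor, measured 4.99 and 5.84 RPKM in IL-2 and 0.169 and 0.21 with LDHi and fell by 4.87 ± 0.26 (adjusted p = 8.25e-06). Fos, Jun and Fosl2, parts of AP-1, changed by -2.28, -1.73 and -1.94. Egr3, which limits T cell activation, rose by 2.39. Of 32 genes induced by interferon 16 fell and 6 rose. The lower count was 9 without IL-2 replicate 2, 8 without IL-2 + LDHi replicate 1 and 10 without IL-2 + LDHi replicate 2, and the higher count 2 without IL-2 replicate 1 and 3 without IL-2 + LDHi replicate 1. Ifitm1, Ifitm2 and Ifitm3, membrane proteins that block viral entry and are close in sequence, changed by -3.41, -4.21 and -2.02, and Rsad2 (viperin) by -3.14.

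Among genes of cell death, 6 of 16 in the BCL2 family were lower (37.5%) and 1 was higher (6.25%), against 21.6% and 17.8% of all genes. Mcl1, a survival factor, rose by 0.71, while the BH3-only killers Bbc3 (PUMA) and Pmaip1 (NOXA) changed by -2.08 and -1.95. Of 16 p53 targets 7 were lower (43.8%) and 3 higher (18.8%), against the same shares of all genes. Both counts were smaller with any of the 4 libraries left out. Cdkn1a, the cell cycle inhibitor p21, measured 46.0 and 27.7 RPKM in IL-2 and 5.60 and 5.12 with LDHi and fell by 2.82 ± 0.28 (adjusted p = 0.000106).

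Mitosis genes that were lower in IL-2 with LDHi were so by less than 2-fold. Of 22 tested 14 were lower (63.6%, against 21.6% of all genes) and none higher (median -0.54), with 7 lower without IL-2 replicate 1 or IL-2 + LDHi replicate 1 and 9 without IL-2 + LDHi replicate 2. Of 22 DNA replication genes 10 were lower, but 5 without IL-2 replicate 2, 1 if IL-2 replicate 1 or IL-2 + LDHi replicate 2 was left out, and 0 without IL-2 + LDHi replicate 1, and 3 with library size alone. Top2a, the topoisomerase of chromosome separation, measured 250.2 and 209.4 RPKM in IL-2, 155 and 160.4 with LDHi and 39.4 and 42.0 without cytokine (-0.58 ± 0.12, adjusted p = 0.00494; 0.051 without IL-2 + LDHi replicate 1). With LDHi all 22 mitosis genes and 21 of 22 replication genes were called higher than without cytokine (medians 1.71 and 1.40). Of 30 cytosolic ribosomal proteins 9 were lower (30.0%, median -0.28), but only 1 or 2 with any 1 of the 4 libraries left out (2 without IL-2 replicate 1, 1 without each of the others). Of 23 genes of ribosome biogenesis 11 were higher and 2 lower (median 0.30), 7 higher without IL-2 replicate 1. Ubtf, a factor of RNA polymerase I, measured 17.4 and 17.0 RPKM in IL-2 and 43.4 and 42.6 with LDHi and rose by 1.28 ± 0.12 (adjusted p = 8.96e-05), whereas the abundant nucleolar chaperone Npm1 measured 1488 and 1445 RPKM in IL-2 and 584 and 585 with LDHi and fell by 1.37 ± 0.18 (adjusted p = 0.000497).

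Whether the effect of LDHi differed between cells in IL-2 and cells in IL-21 was tested as an interaction, the log2 fold change in IL-2 minus that in IL-21. It was called for 21.7% of genes, 3122 of 14357, 1977 of them positive (13.8%) and 1145 negative (7.98%), with a median over all genes of 0.08. The share that was positive depends on the scaling: 2533 positive and 857 negative with library size alone, 1204 and 1211 with limma on log2(RPKM + 1). Of the 5 pairs, the replicates in IL-21 differed most, with an SD of 0.760 for the log2 difference. The count came to 5201 without IL-21 replicate 1. It was lower when a library of the IL-2, IL-2 + LDHi or IL-21 + LDHi group was left out: 1914 (IL-2 replicate 1), 1956 (IL-2 replicate 2), 1742 (IL-2 + LDHi replicate 1), 1803 (IL-2 + LDHi replicate 2), 1949 (IL-21 + LDHi replicate 1) and 1907 (IL-21 + LDHi replicate 2). The interaction was negative in 4 metabolic lists for 17 of 20 glycolysis genes, 15 of 27 of the HIF-1 list, 10 of 17 ATF4 targets and 17 of 25 cholesterol genes, with no member positive (11 cholesterol genes negative without IL-2 + LDHi replicate 1). Other metabolic lists had negative members too. These included 9 of 20 tRNA synthetases, 5 of 13 genes of serine and one-carbon synthesis and 8 of 16 of fatty acid synthesis, with 1 positive in the last. Members of the TCA cycle, fatty acid oxidation, pentose phosphate, nucleotide and redox lists were mostly not called, and 6 of 20 redox and 5 of 24 nucleotide genes were positive. Aldoa fell by 3.06 with LDHi in IL-2, whereas in IL-21 it measured 206.5 and 120.4 RPKM without and 126 and 128 RPKM with LDHi (interaction -2.70 ± 0.22, adjusted p = 6.72e-05). Without LDHi, Aldoa in IL-21 was thus near its 188 and 169 RPKM without cytokine. For Hk2 no such difference was called, with 1.95 and 1.98 RPKM in IL-21 and 0.303 and 0.322 with LDHi (interaction -0.16 ± 0.44, adjusted p = 0.829).

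Positive interactions were found in many lists, of which mitosis and NK receptor genes are described here. Among others, 14 of 21 effector transcription factors and 12 of 18 cytotoxic molecules were positive. So were 13 of 20 memory and naive surface genes and 12 of 22 DNA replication genes, where 13.8% of all genes were. All 22 mitosis genes were called positive (median 3.81). Mki67, the marker of cycling cells, measured 138 and 124 RPKM in IL-2 and 116 and 117 with LDHi, against 50.4 and 51.2 in IL-21 and 1.24 and 1.39 in IL-21 with LDHi (interaction 5.10 ± 0.21, adjusted p = 5.39e-06). Of 20 NK receptor genes 19 were called positive (median 4.59), and 18 fell with LDHi in IL-21, where 31.3% of all genes were called (11.1% higher, 20.3% lower), while 9 rose with LDHi in IL-2. Gzmb fell in both settings, but in IL-21 it went from 672 and 692 to 2.22 and 1.65 RPKM (interaction 4.84 ± 0.36, adjusted p = 4.01e-05). Cish kept its IL-2 level with LDHi, and in IL-21 went from 6.66 and 3.23 to 0.321 and 0.48 RPKM (interaction 3.49 ± 0.36, adjusted p = 0.000252). The largest positive interactions named by rule were Gzmc (7.80), Mpo (7.64), Itgax (7.13), Ctsg (7.07), Gzma (6.48), Prg2 (6.48), S100a4 (6.32) and Cdkn3 (6.29). Mpo, Ctsg and Prg2 are granule genes of neutrophils, eosinophils and basophils: Mpo measured 0.0632 and 0.0568 RPKM in IL-2 and 0.0875 and 0.196 with LDHi, against 6.55 and 10.5 in IL-21 and 0.064 and 0.133 with LDHi. In IL-2 these genes were near 0 in both groups, so their difference stems from the IL-21 libraries. The largest negative ones were Fam183b (-7.61), Moxd1 (-6.83), Mgarp (-6.10), Ak4 (-6.02), Neb (-5.91), Dnm1 (-5.56), Gpld1 (-5.29) and Scd1 (-5.18). Fam183b, Dnm1, Moxd1, Gzmc, Ctsg and Prg2 had at most 3 reads in at least 1 of the 4 groups, so that the size of their interaction depends on the prior count of the fit. Moxd1 had 2 reads in IL-2 and 0 in IL-2 + LDHi, so its difference stems from the IL-21 libraries. The call of Fam183b was lost without IL-2 + LDHi replicate 2 (0.0816), IL-2 replicate 1 (0.0846) or 2 (0.0927), IL-21 + LDHi replicate 2 (0.982) or no cytokine replicate 1 (0.0523) or 2 (0.0508), each value an adjusted p. For Gpld1 it was lost without IL-2 + LDHi replicate 2 (0.0502), IL-2 replicate 2 (0.0504) or IL-21 + LDHi replicate 2 (0.846). For Dnm1 it was lost without IL-21 + LDHi replicate 2 (0.167). For Mgarp it was lost without IL-2 + LDHi replicate 1 (0.0632) or 2 (0.0587), IL-2 replicate 1 (0.0558) or IL-21 + LDHi replicate 1 (0.317) or 2 (0.0615). For Moxd1 it was lost without IL-2 replicate 1 (0.079) or 2 (0.0743). For Prg2 it was lost without IL-2 + LDHi replicate 2 (0.931), IL-2 replicate 1 (0.0851) or 2 (0.0632) or IL-21 + LDHi replicate 1 (0.086). For Ctsg it was lost without IL-2 + LDHi replicate 2 (0.0701).

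**Figure D4:**
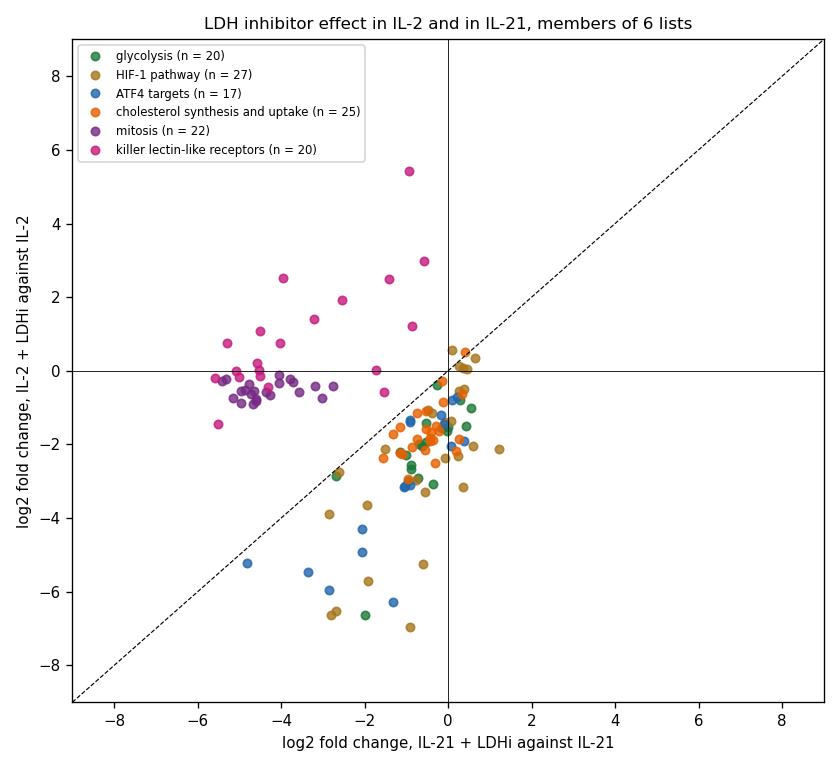
Log2 fold change with LDHi in IL-2 (vertical axis) against that in IL-21 (horizontal axis) for the tested members of 6 gene lists, 1 point per gene. The dashed line marks equal effects. Mitosis genes (purple) lie a little below 0 in IL-2 and far to the left, with medians of -0.54 in IL-2 and -4.61 in IL-21, most NK receptor genes (magenta) lie above the line, and glycolysis, HIF-1, ATF4 and cholesterol genes lie mostly below it. Ncr1 is the highest point at 5.42 in IL-2.

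Transcripts of other cells were low in the 4 libraries, and some moved with LDHi. Of 15 macrophage and dendritic markers tested 9 were higher with LDHi and 2 lower (6 higher without IL-2 replicate 2, and 1 lower without any 1 of the 4 libraries), with summed levels over the 15 found in the files of 90.2 and 94.9 RPKM in IL-2, 110.0 and 121 RPKM with LDHi and 381 and 454 RPKM without cytokine. Lyz2, lysozyme of macrophages, measured 1.66 and 1.11 RPKM in IL-2, 6.13 and 11.2 with LDHi and 113 and 149 without cytokine. C1qb had 0 reads in IL-2 and 111 with LDHi, at least 35.0-fold higher against the floor of 3 counts. H2-Aa measured 1.81 and 1.37 RPKM in IL-2, 9.97 and 11.1 with LDHi and 43.4 and 55.2 without cytokine, while its partner H2-Ab1 measured 20.9 and 17.4 RPKM in IL-2 and 4.65 and 5.57 with LDHi, a call that ended without any 1 of the 4 libraries (adjusted p from 0.0581 without IL-2 replicate 2 to 0.117 without IL-2 + LDHi replicate 1). With LDHi, Lyz2 and H2-Aa thus lay between the IL-2 pair and the much higher pair without cytokine, and 8 of the markers stayed below 1 RPKM in all 4 libraries, Csf1r, C1qa and Itgam among them. Granulocyte, basophil and mast cell markers summed to 4.58 and 5.10 RPKM in IL-2 and 2.00 and 2.22 RPKM with LDHi, with 2 of 12 lower, and erythroid and platelet markers to 10.6 and 13.2 RPKM in IL-2 and 14.8 and 15.5 with LDHi. Without cytokine the granulocyte, basophil and mast cell sums were 362 and 738 RPKM. The erythroid and platelet sums there were 453 and 694 RPKM. B cell markers, of which none of 8 was called, summed to 9.68 and 8.62 RPKM in IL-2 and 9.83 and 8.51 with LDHi. The sums hide a spread between replicates. In both pairs 6 of the 8 were at least 1.5-fold higher in replicate 1 and 0 in replicate 2. The median ratio of replicate 1 to 2 was 5.43 in IL-2 and 4.31 with LDHi. The regulatory T cell factor Foxp3 measured 0.488 and 1.23 RPKM in IL-2 and 4.10 and 4.10 with LDHi and rose by 2.21 ± 0.40 (adjusted p = 0.0025). In the list of CD4 and regulatory T cell markers that holds it, 2 of 6 were higher and 2 lower, and the summed level was 203 and 209.2 RPKM in IL-2 and 50.3 and 51.4 with LDHi, most of it Il2ra. The other higher member, Cd40lg (1.05), lost its call without any 1 of the 4 libraries (adjusted p from 0.0878 to 0.186), and the lower ones were Il2ra and Zbtb7b, the factor of CD4 T cells (-1.34). The part of such cells in the results above was not tested. Genes named outside the naming rule, among them Eno1, Pgam1, Hmgcs1, Trib3, Nupr1, Ero1l, Mat2a, Lrrc32, Top2a, Bcl2 and H2-Ab1, were chosen after their values were seen.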

How the data were processed

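Poly(A) RNA of 10 libraries in 5 groups of 2 was sequenced. The deposited tables give read counts per RefSeq transcript made by the authors, and RPKM that the authors computed from them. Per the submitters' processing notes, reads were mapped to mm10, and Bowtie2 2.2.6, TopHat2 2.2.1, SAMtools 0.1.8, bedtools 2.25.0 and edgeR were named. How the counting treated strand was not given in the sources used here, so reads of overlapping or antisense genes may be shared.

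Each symbol is represented by its transcript of highest summed reads. The test on these counts used edgeR 4.0.16 (R 4.3.3; filterByExpr with a minimum count of 10 and total of 15, TMM scaling, robust quasi-likelihood fit over all 10 libraries). P-values are two-sided and adjusted by Benjamini-Hochberg over all genes tested, and the SE was obtained from the log2 fold change and the F statistic. The fit was also run on simulated counts, the outcome of which is not reported here. Where a group had 0 reads, a fold is a bound against 3 counts, and with 1 to 3 reads a ratio has an exact binomial 95% interval. Floors and intervals cover counting error only. Tables and figures were made with Python 3.11.15, pandas 2.3.3, numpy 2.4.6 and matplotlib 3.10.9.

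Alternatives were DESeq2 1.42.0, RLE size factors, scaling by library size alone, limma 3.58.1 on log2(RPKM + 1), no filter, RPKM of 5 in 2 libraries, the longest transcript, only the libraries compared, the replicate number as a block and each library left out in turn.

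Genes were named by rule: the 10 genes changed most upward and downward, the 8 with the largest change among abundant genes (mean RPKM of 200), the 8 with the largest difference between cytokines, up to 6 members per list by p, all members of lists of at most 10, and a fixed set. The first 3 of these were limited to called genes whose groups did not overlap, with a mean RPKM of at least 5 and left out predicted genes and those of immunoglobulins and T cell receptors. The members, lists and rules were chosen with earlier results of these data known. Some named genes are not reported here.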

Additional observations from a re-analysis of the deposited data

Results flagged for a closer look

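For 38 genes the effect of LDHi in IL-2 differed from that in IL-21 by the interaction test of edgeR (adjusted p below 0.05). Only the genes named for the size of this difference and the fixed set were screened here. Other named genes, such as Aldoa, were called too. Since 16 of the 38 were picked from called genes, the count cannot be set beside the 21.7% of all genes called. Values are the log2 fold change in IL-2 minus that in IL-21, over 2 libraries in each of 4 groups. The 16 genes of the first 2 sentences below were picked for the size of this difference, so their values are a description. The difference was positive for Gzmc (7.80), Mpo (7.64), Itgax (7.13), Ctsg (7.07), Gzma (6.48), Prg2 (6.48), S100a4 (6.32) and Cdkn3 (6.29). It was negative for Fam183b (-7.61), Moxd1 (-6.83), Mgarp (-6.10), Ak4 (-6.02), Neb (-5.91), Dnm1 (-5.56), Gpld1 (-5.29) and Scd1 (-5.18).

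Among the other 22 the difference was positive for Ifng (5.92), Itgae (5.21), Mki67 (5.10), Gzmb (4.84), Cish (3.49), Tbx21 (3.28), Pdcd1 (1.90), Eomes (1.13), Prdm1 (0.98), Foxo1 (0.89), Il7r (0.89), Prf1 (0.83) and Cd8a (0.71). Ifng, the interferon of killer cells, measured 3.35 and 4.36 RPKM in IL-2 and 4.24 and 4.25 with LDHi, against 25.5 and 18.4 in IL-21 and 0.507 and 0.281 with LDHi. Itgae rose in IL-2 and in IL-21 went from 6.68 and 4.28 to 2.02 and 2.13 RPKM. Both genes were lower in IL-21 + LDHi than in IL-2 + LDHi, with no overlap. The difference was negative for Slc2a3 (-1.68), Ccr7 (-1.58), Slc2a1 (-1.41), Atf4 (-1.35), Ldhb (-1.22), Ldha (-1.15), Slc16a1 (-1.05), Pdk1 (-0.92) and Srebf2 (-0.72). Ldhb measured 2.48 and 1.23 RPKM in IL-21 and 5.21 and 6.66 with LDHi, and Ccr7 141 and 72.4 RPKM in IL-21 and 334 and 324 with LDHi. For neither gene was LDHi called in IL-2. The call of Cd8a was lost without IL-2 + LDHi replicate 1 (0.109) or 2 (0.141), IL-2 replicate 1 (0.146) or 2 (0.0767) or IL-21 + LDHi replicate 1 (0.132) or 2 (0.11), each value an adjusted p. For Il7r it was lost without IL-2 + LDHi replicate 1 (0.13) or 2 (0.0657), IL-2 replicate 1 (0.111) or 2 (0.0917) or IL-21 + LDHi replicate 2 (0.128). For Ldhb it was lost without IL-2 + LDHi replicate 1 (0.12) or 2 (0.101), IL-2 replicate 1 (0.101) or 2 (0.0853) or IL-21 + LDHi replicate 1 (0.0524) or 2 (0.124). For Pdk1 it was lost without IL-2 + LDHi replicate 1 (0.0628) or 2 (0.056) or IL-21 + LDHi replicate 2 (0.0538). For Prdm1 it was lost without IL-2 + LDHi replicate 1 (0.123) or 2 (0.0701), IL-2 replicate 2 (0.106) or IL-21 + LDHi replicate 1 (0.0608) or 2 (0.12). For Slc2a1 it was lost without IL-2 + LDHi replicate 1 (0.0753) or 2 (0.0608) or IL-21 + LDHi replicate 2 (0.0757). For Srebf2 it was lost without IL-2 + LDHi replicate 1 (0.134) or 2 (0.105), IL-2 replicate 1 (0.0948) or 2 (0.115) or IL-21 + LDHi replicate 1 (0.0954) or 2 (0.115). Under limma on log2(RPKM + 1), Prdm1 had a difference of -0.13 (adjusted p = 0.672), the opposite sign, and Pdcd1 lost its call (0.174).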

How the results depend on the processing

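The count of genes called for LDHi in IL-2 (5657) was 3651 with a filter of RPKM 5 in 2 libraries, where fewer genes were tested, and 9070 when only the 4 libraries compared were fitted. It ran from 3113 to 7326 with 1 library left out. The count for the difference between cytokines (3122) was 1984 with the RPKM filter and ran from 1742 to 5201 with 1 library left out, and the count against no cytokine (3474) was 2084 and ran from 1556 to 5192. Beyond fewer genes or libraries, the cause was not tested. RLE size factors, library size alone, no filter, the longest transcript, limma and DESeq2 kept all 3 counts within 1.5 times. With the replicate number as a block the counts were 5613, 3027 and 3353. Deviations of libraries with the same number correlated by over 0.1 for 3 of the 10 pairs of groups (0.483 for no cytokine and IL-21, 0.112 and 0.103 for IL-21 + LDHi with IL-2 + LDHi and IL-2) and by less for the others, down to -0.147, with 0.0989 for IL-2 and IL-2 + LDHi. Since not every pair was over 0.1 and the labels tie the numbers to nothing, the main fit did not pair the libraries by number. The B cell markers did follow the number, with a higher sum in replicate 1 of every group. Without cytokine it was 22.6 and 10.6 RPKM, in IL-21 21.4 and 5.65, and in IL-21 + LDHi 19.5 and 6.33. Whether libraries of the same number share a preparation was not tested.

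Of 392 named genes with a test, none that was called in the main fit or in an alternative reversed its sign for LDHi in IL-2. Changes of sign in genes called in neither were not counted. RLE size factors and the longest transcript changed no call among the named genes. DESeq2 lost 1 call and gained 10, library size alone lost 13 and gained 5, and limma lost 29 and gained 2. Leaving out 1 of the 4 libraries lost 40 to 57 calls. With 2 libraries per group and a lone library assumed to vary like the others when its partner is left out, small changes are not resolved, nor are genes of few reads.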

Other observations

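The mitochondrial shuttles, which carry the electrons of NADH from the cytosol to the respiratory chain, are the other main route by which cells restore NAD+. Of 10 shuttle genes 3 were lower (30.0%, against 21.6% of all genes) and 1 higher (10.0%, against 17.8%) with LDHi in IL-2, and the same counts were found without any 1 of the 4 libraries. Slc25a13, the aspartate carrier of the malate-aspartate shuttle, measured 4.42 and 3.85 RPKM in IL-2, 1.96 and 1.98 with LDHi and 1.68 and 1.81 without cytokine and fell by 1.11 ± 0.16 (adjusted p = 0.000676). Got1 and Got2, the cytosolic and mitochondrial transaminases of this shuttle, changed by -1.21 and -0.80. Gpd1l, a dehydrogenase related to that of the glycerol phosphate shuttle, measured 12.6 and 12.1 RPKM in IL-2, 22.9 and 24.9 with LDHi and 17.6 and 18.8 without cytokine and rose by 0.91 ± 0.10 (adjusted p = 0.000178). Among 7 genes of glutamine use, Gls2, the second glutaminase, measured 4.24 and 3.95 RPKM in IL-2, 0.0895 and 0.108 with LDHi and 0.0641 and 0.0979 without cytokine, so that with LDHi it was as low as without cytokine, and it fell by 5.41 ± 0.29 (adjusted p = 8.25e-06).

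Among polyamine genes Srm, spermidine synthase, measured 17.7 and 21.2 RPKM in IL-2, 30.2 and 34.3 with LDHi and 15.3 and 15.4 without cytokine and rose by 0.69 ± 0.13 (adjusted p = 0.00283), while the spermine oxidase Smox fell by 2.05. Of 32 chromatin regulators 8 were lower (25%) and 6 higher (18.8%), close to the shares of all genes. Ezh2, the methyltransferase of the Polycomb complex, measured 85.6 and 74.4 RPKM in IL-2, 42.3 and 41.9 with LDHi and 27.7 and 25.6 without cytokine and fell by 0.97 ± 0.12 (adjusted p = 0.000316). The histone demethylase Kdm5b changed by -1.47, and the acetyltransferase Crebbp and the DNA demethylase Tet3 by 0.96 and 1.18. The snoRNA host genes Snhg1 and Gas5 changed by -1.48 and -0.74, and the nuclear RNA Neat1 by 0.84.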
